A study of Homo sapiens with 15 samples.

Results

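Scavenger receptors and macrophage surface proteins form a loose functional group of cell surface and lysosomal receptors, of which 10 genes were followed here: CD163, CD14, CD68, MSR1, MRC1, STAB1, SCARA3, SCARA5, SCARB1 and SCARB2. They were chosen by symbol around CD163, on the log2 intensities of CD163 and of macrophage transcripts in DED cells, where CD163 was high and the macrophage transcripts were low. All 10 had a probe set, 1 each, among 17687 measured genes. Because those values led to the choice, the levels of the 10 genes in DED cells are described without a test, and their tests are restricted to MA against MSC.

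All arrays came from ASC52, an adipose-derived human mesenchymal stem cell line that telomerase reverse transcriptase had immortalised. DED cells were differentiated to adipocytes over 14 days, starting 3 days after seeding, and then spent 7 days in conditioned medium of the breast carcinoma line MDA-MB-231. MA cells were differentiated alike and then spent 7 days in control medium (RPMI with 10% serum from fetal calves). A serum share of 10% is given for DED cells as well. MSC cells were not differentiated, and the sources used here do not give their medium or harvest time. There were 5 arrays of DED, 5 of MA and 5 of MSC, all of this 1 line. The labels do not say whether the arrays of a group are separate cultures, so the p-values reflect the spread between these samples alone, and that spread may be technical.

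Scavenger receptors bind modified lipoproteins, polyanions, cell debris and carrier proteins and bring them into the cell. Macrophages carry many of them, among them CD163, which takes up haptoglobin bound to haemoglobin, the mannose receptor MRC1 and the class A receptor MSR1, and CD14 and CD68 are widely used to mark monocytes and macrophages. Several members are also made outside that lineage: SCARB1 binds high density lipoprotein in steroid-producing and liver cells, SCARB2 is a lysosomal membrane protein of most cells, and SCARA3 and SCARA5 are found in connective tissue cells. Adipose tissue normally holds both adipocytes and macrophages, whereas the cultures here were started from a cell line.

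Values are log2 intensities, and the 612 negative control probe sets, which serve as a background scale, centred on 4.80 (median), and their 95th percentile was 8.31. The least alike arrays of a group correlated over all genes at 0.982 in DED (arrays 1 and 3), 0.992 in MA and 0.992 in MSC. The CD163 differences, and counts of single lists that change without DED arrays 1 and 3, are given with and without them. For DED values of the other members, and for the related genes together, results without these arrays are not given. The mean of 10 adipocyte markers lay between 9.20 and 10.45 on DED arrays, between 11.24 and 11.42 on MA arrays and between 5.15 and 5.40 on MSC arrays. The mean of 8 mesenchymal stem cell markers lay between 13.62 and 13.90 in DED, 13.62 and 13.81 in MA and 14.14 and 14.31 in MSC. For lists of related genes, counts of genes past the test stand beside the share of all genes past it, which was 25.9% in DED against MA, 33.4% in DED against MSC and 33% in MA against MSC. Differences of related genes with a group mean below 8.31 have no fold, since background bears on their size. The arrays measured RNA from whole cultures, so fewer cells of a kind and less RNA per cell cannot be told apart.

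CD163, the haptoglobin and haemoglobin receptor, had the largest difference of the 10 genes in both DED comparisons. Its log2 intensity on DED arrays 1 to 5 was 10.89, 11.78, 10.98, 12.09 and 12.47, on MA arrays 7.10, 6.38, 6.59, 6.87 and 6.34, and on MSC arrays 5.99, 6.15, 6.69, 6.08 and 6.02. Every DED array lay above every MA and MSC array, and MA and MSC arrays overlapped. The means were 11.64 ± 0.69 in DED, 6.66 ± 0.33 in MA and 6.19 ± 0.29 in MSC (SD, n = 5 each). DED was higher than MA by 4.99 ± 0.25 and higher than MSC by 5.46 ± 0.25 (difference ± SE, log2), and without DED arrays 1 and 3 these differences were 5.46 and 5.93. MA and MSC arrays were all below the 8.31 of the control probe sets, so background bears on the size of both differences and no fold is given. The mean of MA was 0.47 ± 0.25 above that of MSC, a difference that did not pass the limma test (adjusted p = 0.17, Benjamini-Hochberg over all genes). That comparison passed when only MA and MSC arrays were fitted (adjusted p = 0.043) and when DED arrays 1 and 3 were left out (adjusted p = 0.044).

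**Figure D1:**
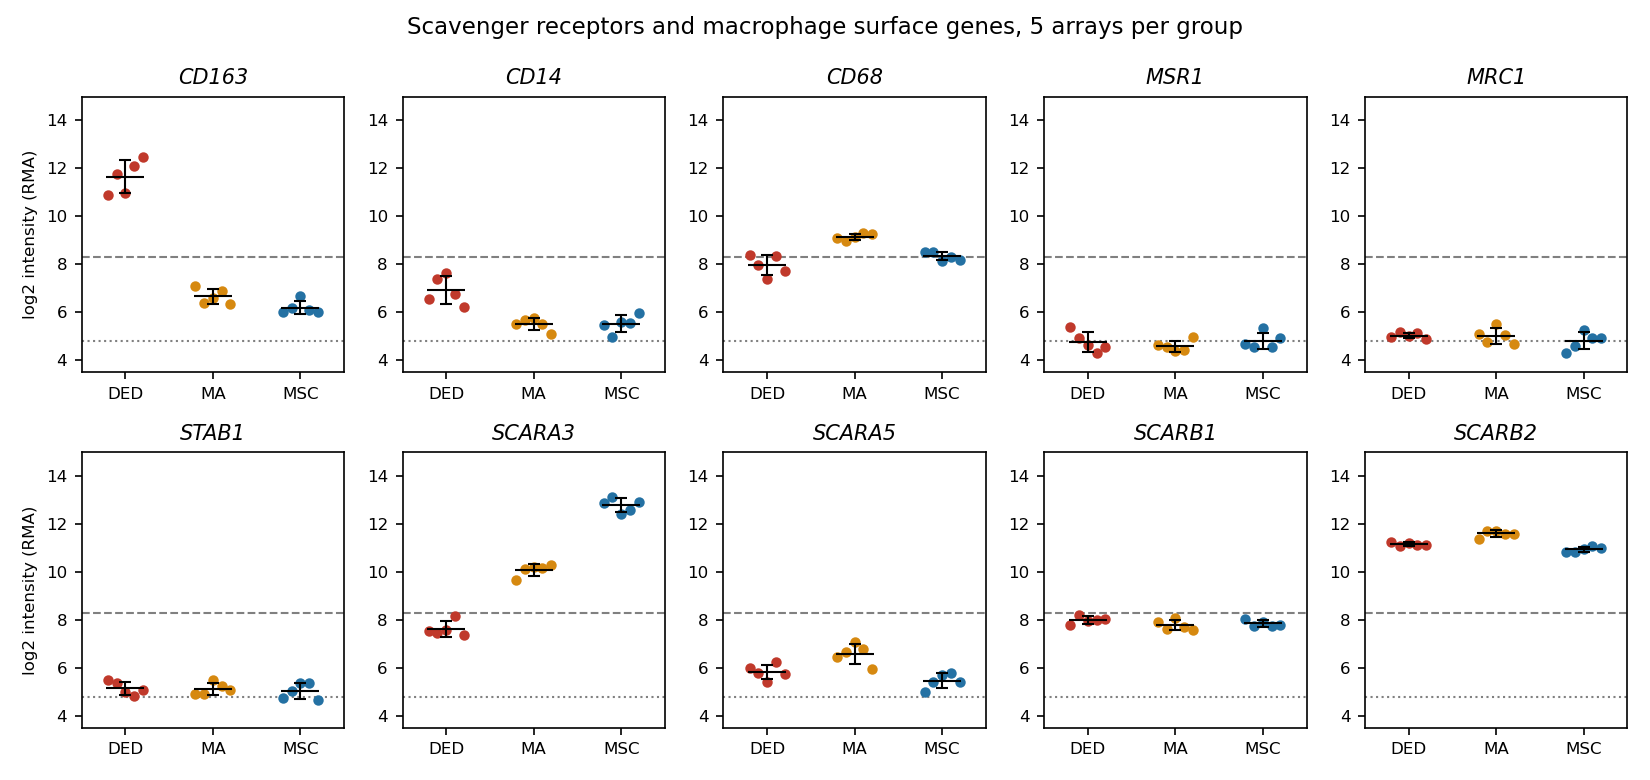
Log2 intensity of the 10 genes on each array of the DED, MA and MSC groups, with points for arrays, horizontal bars for group means and error bars for SD; the dotted and dashed lines are the median (4.80) and the 95th percentile (8.31) of the negative control probe sets. CD163 in DED lies between 10.89 and 12.47, above all MA and MSC arrays, SCARA3 is lowest in DED and highest in MSC, and MSR1, MRC1 and STAB1 stay near the negative control median in every group.

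CD163 lies on chromosome 12 beside CD163L1, a related scavenger receptor gene with the same kind of cysteine-rich domains, and CD163L1 was also higher in DED. The 250 bases before the start of each gene are shown because the neighbours moved in the same direction (RefSeq, GRCh38.p14, chr12:7503778-7504027 and chr12:7444154-7444403, both on the minus strand, written 5′ to 3′ in the direction of transcription). Capitals mark runs of 10 or more bases that both windows hold.
CD163: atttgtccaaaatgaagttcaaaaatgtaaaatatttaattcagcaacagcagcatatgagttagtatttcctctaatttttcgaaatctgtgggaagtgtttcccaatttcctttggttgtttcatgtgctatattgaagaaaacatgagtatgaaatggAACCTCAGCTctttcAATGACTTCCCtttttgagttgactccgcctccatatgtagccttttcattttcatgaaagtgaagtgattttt
CD163L1: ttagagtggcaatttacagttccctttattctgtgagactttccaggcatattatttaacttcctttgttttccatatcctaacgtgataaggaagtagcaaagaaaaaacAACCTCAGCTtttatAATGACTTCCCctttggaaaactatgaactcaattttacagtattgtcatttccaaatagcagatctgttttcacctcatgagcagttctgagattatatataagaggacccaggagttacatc
The shared runs were AACCTCAGCT and AATGACTTCCC, in the same order and with the same spacing in both windows. They began 89 and 74 bases before the CD163 start and 139 and 124 bases before the CD163L1 start. Among 35116 RefSeq windows of 250 bases before a start, 21 windows (0.0598%) held the 10-base run and 3 windows (0.00854%) held the 11-base run, read on the same strand. Both counts include the CD163 and CD163L1 windows from which the runs were taken. The runs were found by comparing these windows and are a description of sequence likeness, not of a binding site.

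CD163L1 had log2 intensities of 5.92, 7.42, 4.70, 6.54 and 6.40 on DED arrays 1 to 5, against 4.76, 4.87, 4.73, 4.68 and 4.55 on MA arrays and 4.56, 3.91, 4.95, 4.17 and 4.50 on MSC arrays. DED array 3 lay among the MA arrays and the other 4 DED arrays lay above them. CD163L1 rose in DED against MA by 1.48 ± 0.32 (difference ± SE, limma adjusted p = 0.0016) and in DED against MSC by 1.78 (adjusted p = 0.00017). Without DED array 3 the difference to MA was 1.85 (adjusted p = 4.9e-06), and without DED arrays 1 and 3 it was 2.07 (adjusted p = 1.5e-06). MA against MSC differed by 0.30 and did not pass (adjusted p = 0.54). MA and MSC means lay under the negative control median, so no fold is given.

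The haemoglobin and haem list held 15 measured genes, of which 4 rose and 4 fell in DED against MA (53.3%), 9 rose and 3 fell in DED against MSC (80.0%), and 7 rose and 1 fell in MA against MSC (53.3%). Without DED arrays 1 and 3, 7 rose and 3 fell in DED against MSC, and 7 rose and 2 fell in MA against MSC. HP, which encodes haptoglobin, the CD163 ligand, rose at both steps. Its mean was 10.17 ± 0.68 in DED, 8.97 ± 0.21 in MA and 7.05 ± 0.37 in MSC. The difference of DED to MA was 1.20 ± 0.25 (adjusted p = 0.0009), with DED array 3 overlapping the MA arrays, and that of MA to MSC was 1.92 (adjusted p = 2.8e-06). HMOX1, which breaks down haem after uptake, averaged 7.39 in DED, 7.40 in MA and 6.97 in MSC. It rose in MA against MSC by 0.44 (adjusted p = 0.0071), and its difference between DED and MA was -0.02 ± 0.12 (adjusted p = 0.94). SLC11A2, a ferrous iron importer, rose in DED against MA by 1.49 (adjusted p = 1e-06), whereas SLC40A1, which encodes the iron exporter ferroportin, fell by 1.25 (adjusted p = 3e-05). In MA against MSC SLC40A1 rose by 2.24 (adjusted p = 5.4e-09) and TFRC, the transferrin receptor, fell by 1.63 (adjusted p = 4.4e-09).

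CD163 is shed from the cell surface by the protease ADAM17, and 5 shedding genes were measured. ADAM17 averaged 10.01 ± 0.12 in DED, 9.24 ± 0.20 in MA and 8.94 ± 0.21 in MSC. It rose in DED against MA by 0.77 ± 0.12 (adjusted p = 6.9e-05) and in DED against MSC by 1.07 (adjusted p = 6.4e-07), and MA against MSC did not pass (0.30, adjusted p = 0.075). The last comparison passed in 3 of 24 alternatives, with adjusted p from 0.034 to 0.21 over all of them. Of the 5 genes 2 rose and 0 fell in DED against MA (40%), 3 rose and 2 fell in DED against MSC (100%), and 1 rose and 1 fell in MA against MSC (40%), where TIMP3, an inhibitor of ADAM17, fell by 2.18 (adjusted p = 1.5e-07). TIMP3 differed by -0.12 in DED against MA (adjusted p = 0.76), but fell by 0.43 without DED array 3 (adjusted p = 0.011) and fell by 0.30 without DED arrays 1 and 3 (adjusted p = 0.043). Without DED arrays 1 and 3, 2 of the 5 genes rose and 1 fell in DED against MA.

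Glucocorticoids, IL-6 and IL-10 are known in monocytes to raise CD163, and 14 genes of these pathways were measured. In DED against MA 4 rose and 2 fell (42.9%), in DED against MSC 9 rose and 1 fell (71.4%), and in MA against MSC 9 rose and 1 fell (71.4%). IL6, the cytokine, averaged 7.65 in DED, 4.89 in MA and 5.28 in MSC, and rose in DED against MA by 2.76 (adjusted p = 4.6e-11). STAT3, which carries the IL-6 and IL-10 signal to the nucleus, averaged 14.30 in DED, 13.22 in MA and 12.53 in MSC and rose in DED against MA by 1.08 (adjusted p = 1.6e-06). IL6R, the IL-6 receptor chain, fell by 0.74 in DED against MA (adjusted p = 0.00056). JAK1, the other gene of the list that fell there, averaged 14.06 in DED and 14.57 in MA (adjusted p = 0.0044). The largest rises of the list in MA against MSC were in ZBTB16, by 7.77 (adjusted p = 1.2e-19), and TSC22D3, by 3.84 (adjusted p = 5.3e-14), both of which are classical glucocorticoid-induced genes. Whether any of these genes bears on CD163 was not tested.

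CD14, the co-receptor that hands bacterial lipopolysaccharide to TLR4, was higher in DED than in the other groups, at low intensity. Its values were 6.55, 7.37, 7.63, 6.77 and 6.22 on DED arrays, against 5.50, 5.67, 5.75, 5.52 and 5.09 on MA arrays and 5.47, 4.97, 5.60, 5.55 and 5.95 on MSC arrays. All DED arrays lay above all MA and MSC arrays, and all 15 arrays were below that 95th percentile. DED was higher than MA by 1.40 ± 0.23 and higher than MSC by 1.40 (log2). MA and MSC averaged 5.51 ± 0.25 and 5.51 ± 0.35, with a difference of -0.002 and a limma adjusted p of 1.

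TLR4, the lipopolysaccharide receptor itself, rose at both steps. Its values were 13.24, 13.12, 12.36, 12.92 and 12.71 on DED arrays, 9.26, 9.12, 9.37, 9.49 and 9.14 on MA arrays and 7.26, 6.95, 7.04, 8.03 and 7.85 on MSC arrays. The 3 groups did not overlap. TLR4 rose in DED against MA by 3.59 ± 0.20 (adjusted p = 4.6e-11) and in MA against MSC by 1.85 (adjusted p = 2.3e-07). LY96, which encodes the MD2 subunit that binds lipopolysaccharide beside TLR4, averaged 9.72 in DED, 9.44 in MA and 10.22 in MSC, and fell by 0.78 in MA against MSC (adjusted p = 9.7e-05) while DED against MA did not pass (0.28, adjusted p = 0.15). LBP, the serum protein that loads CD14, rose in MA against MSC by 2.22 (adjusted p = 5.3e-06), and TLR6, a partner of TLR2, fell by 1.13 in DED against MA (adjusted p = 3.5e-06). Of the 13 measured genes of this pathway 1 rose and 1 fell in DED against MA (15.4%), 4 rose and 2 fell in DED against MSC (46.2%), and 3 rose and 1 fell in MA against MSC (30.8%). The 2 calls in DED against MA became 4 without DED array 3, without MA array 5, or without DED arrays 1 and 3, and in DED against MSC 5 rose and 2 fell without DED arrays 1 and 3.

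The windows of CD14 and TLR4 are shown because both genes were higher in DED (RefSeq, GRCh38.p14, chr5:140633176-140633425 on the minus strand and chr9:117704153-117704402 on the plus strand). Capitals mark matches, on either strand, to the TATA box letters TATAAA, the glucocorticoid receptor letters AGAACA, the STAT letters TTCNNNGAA, the AP-1 letters TGANTCA, the PU.1 letters GAGGAA and the E box letters CACGTG.
CD14: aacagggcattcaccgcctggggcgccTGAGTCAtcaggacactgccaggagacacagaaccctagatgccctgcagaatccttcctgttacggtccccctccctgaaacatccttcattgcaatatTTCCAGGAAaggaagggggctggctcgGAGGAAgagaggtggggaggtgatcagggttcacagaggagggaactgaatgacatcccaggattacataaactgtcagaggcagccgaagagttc
TLR4: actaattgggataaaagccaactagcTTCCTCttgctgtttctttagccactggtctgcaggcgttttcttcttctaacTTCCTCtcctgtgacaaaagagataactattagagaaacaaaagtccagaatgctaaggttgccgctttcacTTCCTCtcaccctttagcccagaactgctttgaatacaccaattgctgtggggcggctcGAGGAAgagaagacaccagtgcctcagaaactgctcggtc
CD14 had an AP-1 match 223 bases before its start, a STAT match at 123 and a PU.1 match at 96, and the matches did not overlap. TLR4 had 4 PU.1 matches, beginning 224, 171, 99 and 40 bases before its start. In all 35116 windows of 300 bases, which reach 50 bases past the start, the share with a match was 7.71% for AP-1, 7.66% for STAT, 27.9% for PU.1, 14.8% for the glucocorticoid receptor letters, 11.5% for the TATA box and 7.26% for the E box. Of the 10 genes 5 were in the sequence table, and 4 of these, CD163, CD14, CD68 and STAB1, held a PU.1 match, while SCARB2 held none of the 6 motifs. An AP-1 match was held by CD14 and CD68, and a glucocorticoid receptor match by CD163 alone of the 5. The latter began at base 26 past the CD163 start, outside the bases printed. The PU.1 match of CD163 began 182 bases before its start and is not in capitals above. A match is a description of letters and not of binding.

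Among the class A receptors, SCARA3, a scavenger receptor-like protein linked to oxidative stress, was lower at each step. Its values were 7.53, 7.47, 7.57, 8.19 and 7.36 on DED arrays, 9.66, 10.14, 10.23, 10.16 and 10.32 on MA arrays and 12.88, 13.15, 12.43, 12.59 and 12.93 on MSC arrays. The 3 groups did not overlap, with MSC highest and DED lowest. SCARA3 fell by 2.69 ± 0.17 on the log2 scale in MA against MSC (limma adjusted p = 8.3e-11), a 6.47-fold lower intensity. DED minus MA was -2.48 ± 0.17 and DED minus MSC was -5.17, and the DED mean of 7.62 was below 8.31. SCARA5, a ferritin receptor, behaved otherwise, at low intensity. It had 6.0, 5.78, 5.43, 6.24 and 5.77 on DED arrays, 6.48, 6.65, 7.07, 6.79 and 5.95 on MA arrays and 5.0, 5.42, 5.71, 5.78 and 5.41 on MSC arrays. It rose in MA against MSC by 1.12 (adjusted p = 9.2e-05) with no overlap, and DED overlapped both other groups. MSR1, the macrophage scavenger receptor, lay between 4.30 and 5.38 in DED, 4.38 and 4.95 in MA and 4.53 and 5.35 in MSC, and its means were under the negative control median in every group (MA against MSC -0.22, adjusted p = 0.43).

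The 2 other class A genes named beside them both fell in DED against MA and moved in opposite directions in MA against MSC. COLEC12, a collectin with a class A domain layout that binds modified lipoprotein and microbes, averaged 7.20 ± 0.82 in DED, 9.25 ± 0.14 in MA and 11.83 ± 0.24 in MSC. It fell by 2.05 ± 0.26 in DED against MA (adjusted p = 5.2e-06) and fell by 2.58 in MA against MSC (adjusted p = 1.3e-07). MARCO, a macrophage receptor with collagenous structure, rose in MA against MSC by 1.85 (adjusted p = 4.8e-07) and fell by 0.87 in DED against MA (adjusted p = 0.0033), with means of 8.87 in DED, 9.75 in MA and 7.90 in MSC. Of 19 measured scavenger receptor genes outside the 10, 1 rose and 4 fell in DED against MA (26.3%), 5 rose and 2 fell in DED against MSC (36.8%) and 3 rose and 1 fell in MA against MSC (21.1%), shares that are near or under those of all genes. Without DED arrays 1 and 3, 1 rose and 3 fell in DED against MA, 4 rose and 2 fell in DED against MSC and 4 rose and 1 fell in MA against MSC.

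Class B receptors gave another pattern. SCARB2, a membrane protein of lysosomes, had 11.27, 11.09, 11.23, 11.14 and 11.15 on DED arrays, 11.40, 11.74, 11.74, 11.60 and 11.61 on MA arrays and 10.84, 10.85, 10.97, 11.09 and 11.02 on MSC arrays. It rose in MA against MSC by 0.66 ± 0.10, or 1.58-fold (limma adjusted p = 2e-05), without overlap. All DED arrays lay below all MA arrays, by 0.44 between means, and DED overlapped MSC. SCARB1, the high density lipoprotein receptor, lay between 7.80 and 8.23 in DED, 7.57 and 8.11 in MA and 7.75 and 8.06 in MSC, below 8.31 on every array. It differed by -0.07 ± 0.12 in MA against MSC (adjusted p = 0.73), and its 3 groups overlapped.

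CD36, the class B receptor for fatty acids and oxidised lipoprotein, averaged 7.66 ± 0.44 in DED, 11.34 ± 0.15 in MA and 5.87 ± 0.56 in MSC. It rose in MA against MSC by 5.47 (adjusted p = 1.3e-13) and fell by 3.69 ± 0.22 in DED against MA (adjusted p = 1.7e-10), and it was 1.78 higher in DED than in MSC (adjusted p = 2e-06). All MSC arrays and the DED mean of CD36 were below 8.31, so the sizes of these differences depend on background. In the high density lipoprotein and cholesterol transfer list, 13 genes were measured, of which 3 rose and 2 fell in DED against MA (38.5%), 4 rose and 0 fell in DED against MSC (30.8%) and 3 rose and 1 fell in MA against MSC (30.8%). Without DED arrays 1 and 3, 3 rose and 0 fell in DED against MSC. ABCA1, which loads cholesterol onto lipoprotein, averaged 12.72 in DED, 11.86 in MA and 10.28 in MSC and rose at both steps, by 0.86 in DED against MA (adjusted p = 3e-05) and 1.58 in MA against MSC (adjusted p = 3.9e-09). APOE rose in MA against MSC by 3.33 (adjusted p = 1.3e-05) and fell by 1.95 in DED against MA (adjusted p = 0.0042). Its MA arrays were widely spread (11.76 ± 1.43, from 10.23 to 13.38) and overlapped the DED arrays, which lay between 8.97 and 11.02. Among 12 lysosomal genes 2 rose and 3 fell in DED against MA (41.7%), 1 rose and 6 fell in DED against MSC (58.3%) and 2 rose and 4 fell in MA against MSC (50%), where LGMN, a lysosomal protease, fell by 2.08 (adjusted p = 3.6e-11). Of the 2 rises in DED against MA, that of CTSD (adjusted p = 0.048) did not pass in 15 of 24 alternatives. The number of these lysosomal genes past the test in DED against MA ran from 4 to 7 over the alternatives.

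CD68, a lysosomal glycoprotein of macrophages that other cells also make, was highest in MA. Its values were 8.40, 7.97, 7.39, 8.35 and 7.73 on DED arrays, 9.10, 8.97, 9.14, 9.28 and 9.26 on MA arrays and 8.49, 8.52, 8.15, 8.30 and 8.18 on MSC arrays. CD68 rose in MA against MSC by 0.82 ± 0.16 (limma adjusted p = 0.00038), without overlap, and no fold is given because 3 of 5 MSC arrays were below 8.31. DED lay below MA on every array, with a difference of -1.18 between means, and overlapped MSC. CD68 ran opposite to CD163 and CD14 in DED against MA.

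MRC1, the macrophage mannose receptor, and STAB1, a receptor of macrophages and sinusoidal endothelium, were near the negative control median in every group. MRC1 lay between 4.88 and 5.15 in DED, 4.67 and 5.48 in MA and 4.31 and 5.24 in MSC (MA against MSC 0.21, adjusted p = 0.38). STAB1 lay between 4.85 and 5.49 in DED, 4.90 and 5.50 in MA and 4.66 and 5.39 in MSC (0.09, adjusted p = 0.76). STAB2, its relative, averaged 5.47 in DED, 5.26 in MA and 5.26 in MSC and passed in no comparison. MRC2, the collagen-binding member of the mannose receptor family and a fibroblast gene, averaged 13.67 in DED, 13.80 in MA and 14.42 in MSC. It fell by 0.61 in MA against MSC (adjusted p = 9.7e-05) and did not pass in DED against MA (-0.13, adjusted p = 0.42). PLA2R1, another member of that family, rose in MA against MSC by 2.0 (adjusted p = 7.3e-08) and fell by 1.16 in DED against MA (adjusted p = 0.00013). Of 6 genes of this family and of collagen uptake, 1 rose and 3 fell in DED against MA (66.7%), 2 rose and 4 fell in DED against MSC (100%) and 1 rose and 3 fell in MA against MSC (66.7%). Without DED arrays 1 and 3, 1 rose and 4 fell in MA against MSC.

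**Figure D2:**
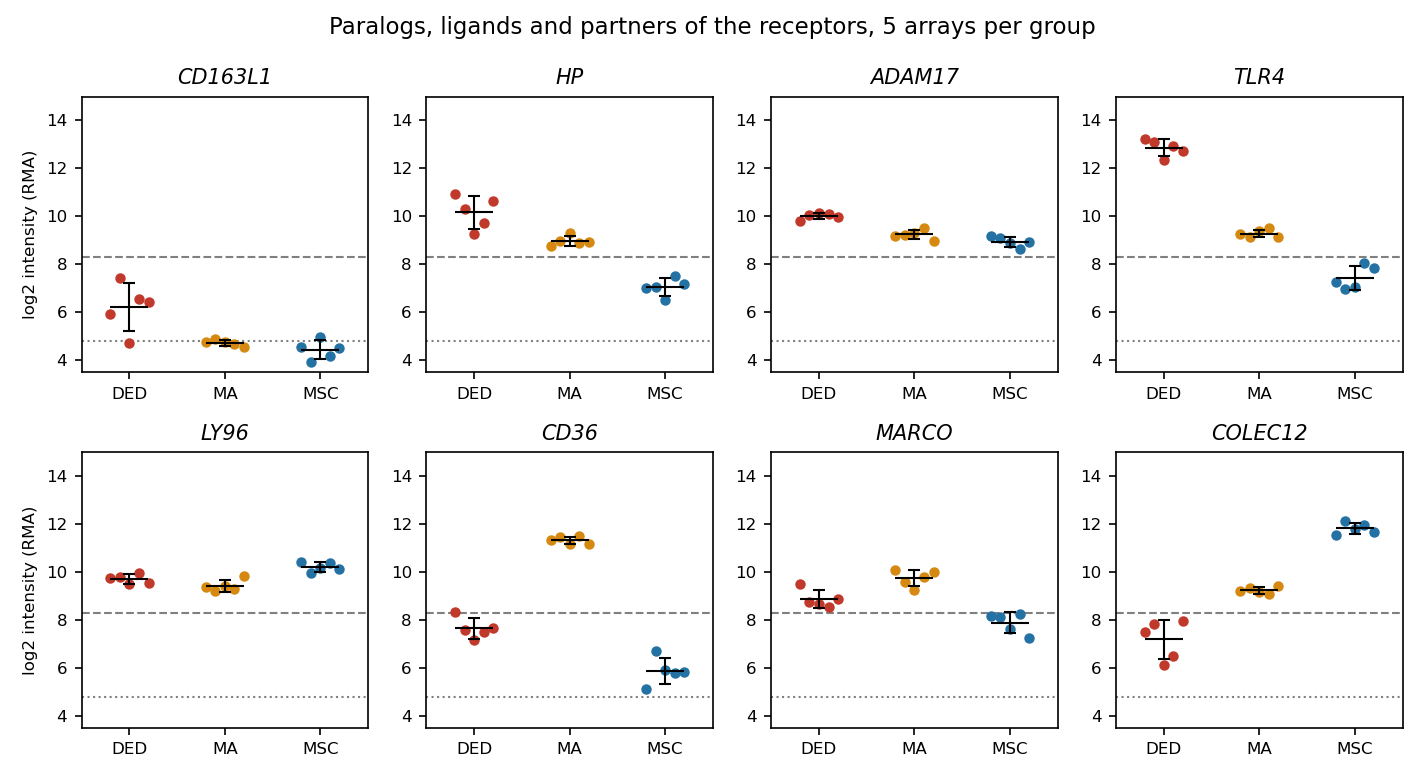
Log2 intensity on each DED, MA and MSC array of related receptors, ligands and partners of the 10 receptors. Horizontal bars are means, error bars are SD, and the dotted and dashed negative control lines are the same (4.80 and 8.31). TLR4 and HP are highest in DED and lowest in MSC, CD36 is highest in MA, COLEC12 is lowest in DED and highest in MSC, and CD163L1 is above the MA arrays on 4 of 5 DED arrays.

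The listed macrophage and leukocyte genes stayed low in all groups. Since that was part of why the 10 genes were chosen, it is given as a description. The list leaves out MARCO and the 10 genes, so its counts depend on which genes it holds. CD68 averaged 9.15 in MA and 8.33 in MSC, and MARCO 9.75 in MA and 8.87 in DED, all above 8.31. CD163 and CD14 were higher in DED, whereas MSR1, MRC1 and STAB1 stayed near the negative control median. Of 28 measured markers, 0 had a mean of 8.31 or more in any group. The mean was below 4.80, the median of the negative controls, for 11 markers in DED, 11 in MA and 12 in MSC. Their mean over the list was 5.34 to 5.49 on DED arrays, 5.25 to 5.40 on MA arrays and 5.31 to 5.46 on MSC arrays. The pan-leukocyte gene PTPRC averaged 5.76 in DED, 5.51 in MA and 5.62 in MSC, and the macrophage growth factor receptor CSF1R 7.66 in DED, 7.86 in MA and 7.78 in MSC. SPI1, which encodes PU.1, averaged 7.25 in DED, 7.02 in MA and 7.08 in MSC, and ITGAM 5.12 in DED, 5.17 in MA and 5.25 in MSC. AIF1 averaged 4.55 in DED, 4.62 in MA and 4.49 in MSC, and TYROBP 7.90 in DED, 7.71 in MA and 7.91 in MSC. Differences of DED to MA over the list ran from -0.21 to 0.34 with a median of 0.033. The largest was that of CD4, which averaged 4.75 in DED, 4.41 in MA and 4.47 in MSC. Every DED array lay above every MA array for 2 of the 28 markers, CD4 and C1QB, beside 18.1% of all genes without overlap. Endothelial (8 genes) and epithelial (10 genes) markers had list means of 5.52 to 5.80 and 5.62 to 5.80 on DED arrays, 5.62 to 5.86 and 5.60 to 5.71 on MA arrays and 6.02 to 6.28 and 5.58 to 5.74 on MSC arrays. Among the endothelial genes TEK averaged 6.24 in DED, 6.65 in MA and 10.62 in MSC, and EMCN, at 6.98 in DED, 6.50 in MA and 6.09 in MSC, rose in DED against MA (0.48, adjusted p = 0.046) and in DED against MSC (0.88, adjusted p = 0.00036). The epithelial gene KRT8 averaged 9.16 in DED, 8.99 in MA and 8.94 in MSC, above 8.31 in every group. ESRP1, another epithelial gene, averaged 4.58 in DED, 4.23 in MA and 4.10 in MSC and rose in DED against MSC (0.48, adjusted p = 0.008). CD4, C1QB, TEK, EMCN, KRT8 and ESRP1 were picked out after their values were seen.

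**Figure D3:**
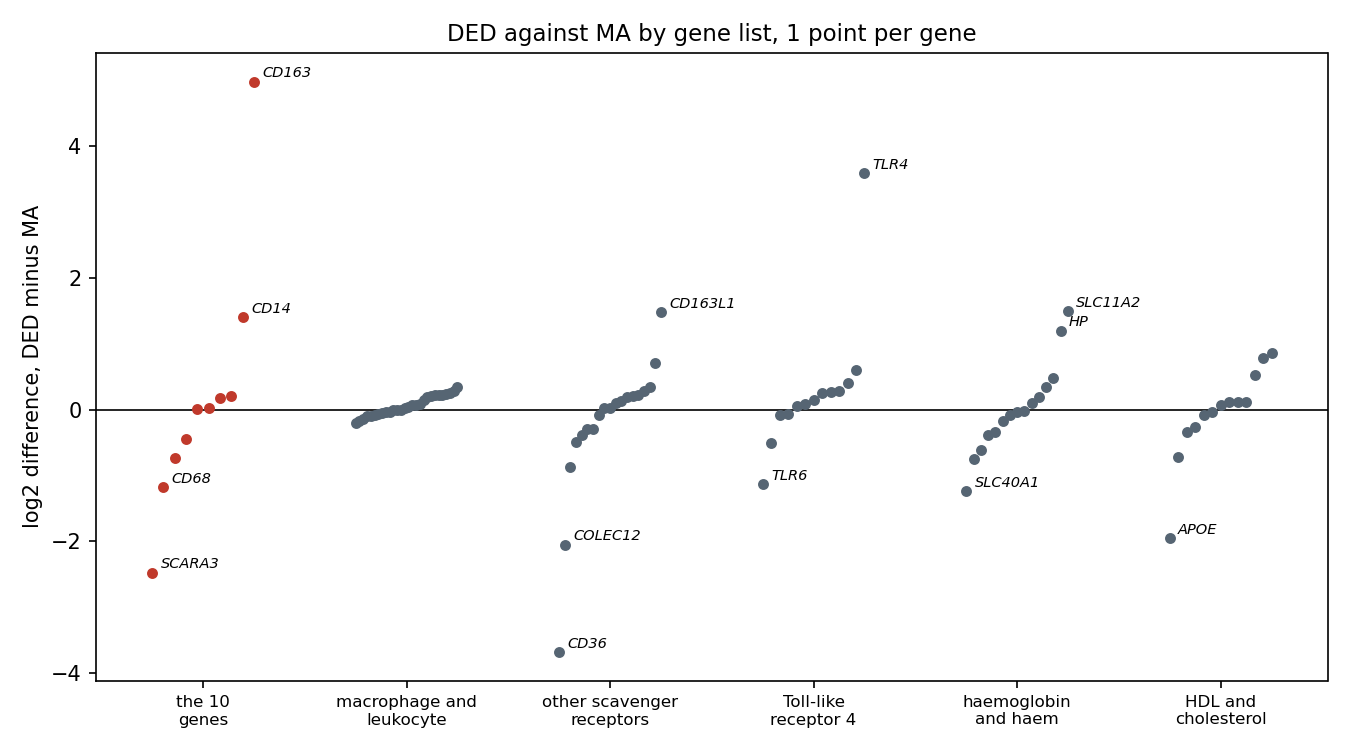
Log2 difference of DED minus MA for the genes of each list, 1 point per gene, ordered by size within each list; the line marks no difference. The macrophage and leukocyte genes lie between -0.21 and 0.34, whereas CD163 is at 4.99.

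Counted together, 4 of the 10 genes (40%) passed the limma test in MA against MSC, SCARA5, CD68 and SCARB2 upward and SCARA3 downward, beside 33% of all genes (15.4% up and 17.6% down). The MA and MSC arrays of the same 4 genes did not overlap, beside 27% of all genes (12.4% higher and 14.6% lower in MA). Their median difference was 0.15, against -0.002 over all genes. In DED against MA the arrays did not overlap for 5 of 10 genes, CD163 and CD14 above and CD68, SCARA3 and SCARB2 below, beside 18.1% of all genes (8.61% above and 9.48% below), and the median difference was 0.015 against 0.018. In DED against MSC this held for 3 of 10, CD163 and CD14 above and SCARA3 below, beside 25.1% (12.4% above and 12.7% below), with a median of 0.18 against 0.028. Since DED values led to the choice of the genes, nothing is read from the last 2 counts. Over the 96 related genes outside the 10, 17 rose and 19 fell in DED against MA (37.5%), beside 25.9% of all genes (12.9% up and 13% down). In DED against MSC 37 rose and 20 fell (59.4%), beside 33.4% of all genes (17.1% up and 16.4% down). In MA against MSC 29 rose and 12 fell (42.7%). The related lists were chosen with earlier results of these data known, so nothing is read from these shares either.

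**Figure D4:**
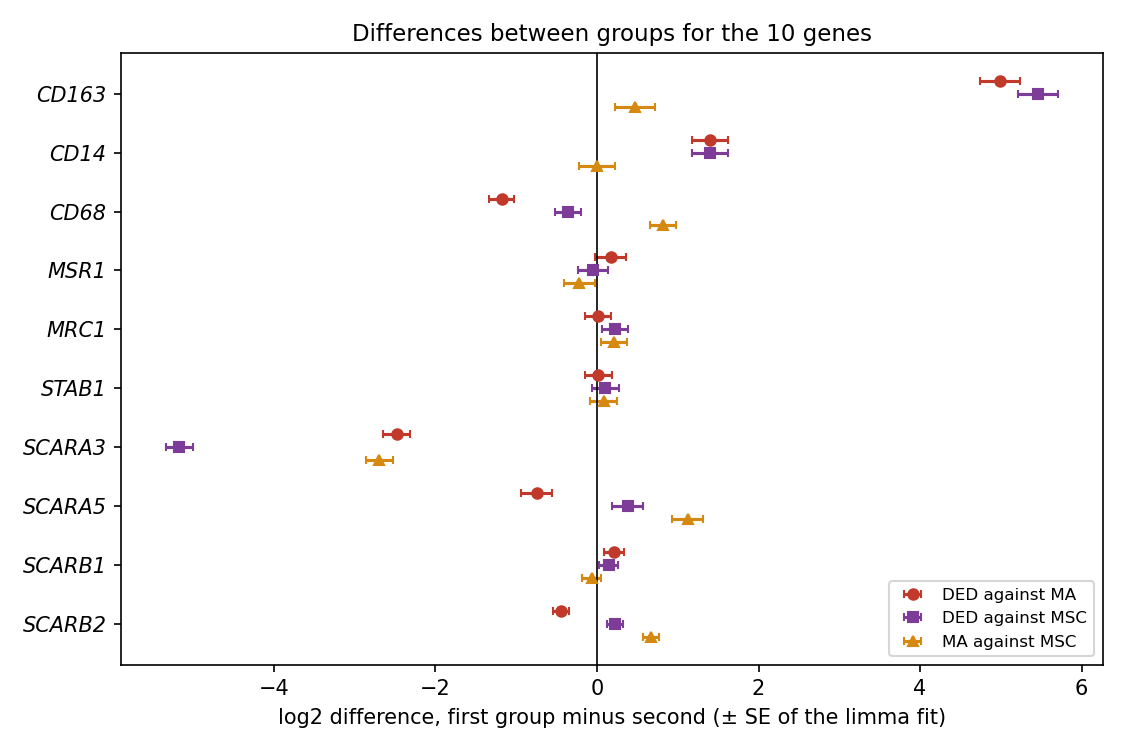
Log2 differences of the 10 genes for DED minus MA, DED minus MSC and MA minus MSC, with standard errors as bars. CD163 stands at 4.99 and 5.46 in the DED differences, SCARA3 at -2.48, -5.17 and -2.69, and MSR1, MRC1 and STAB1 lie near 0.

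The 5 genes whose values followed CD163 most closely over the 15 arrays were CCNL1 (Pearson r = 0.987), RAB31 (0.986), CYP19A1 (0.986), ORMDL1 (0.983) and P2RX7 (0.982). The 15 points share 3 groups and are not independent draws, so no p is given and the correlations are a description. Since CD163 itself was high in DED alone, genes picked for following it are high in DED by that choice. Nothing is read from the direction of their differences. The difference of DED to MA was 1.84 for CCNL1, a cyclin, 1.21 for RAB31, a vesicle transport GTPase, 4.61 for CYP19A1, which encodes aromatase, 1.35 for ORMDL1 and 2.93 for P2RX7, an ATP-gated channel.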

How the data were processed

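Expression was measured on 15 single-colour arrays of ASC52 cells, and sample titles gave the groups DED, MA and MSC. Per the submitters' processing notes, the deposited values are RMA summaries of each probe set on the log2 scale, made with Transcriptome Analysis Console. Since RMA normalizes between arrays, changes common to every gene are hidden. Software versions and the genome build are not given in these sources.

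Of 24351 probe sets, 17709 carried 1 symbol in the platform annotation and 0 several. 20 genes had several probe sets, of which the highest mean was kept, leaving 17687 genes, with no filter on dim ones. Limma 3.58.1 in R 4.3.3 fitted 1 mean per group over all 15 arrays, without covariates, and a gene passed at a two-sided adjusted p under 0.05 (Benjamini-Hochberg over all genes). Errors are SD over 5 arrays or the SE of the moderated difference. The number of arrays limits the precision.

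The members and lists were chosen with earlier results of these data known. Named genes were the 10 members, their direct partners, up to 2 rises and 2 falls per list and comparison among genes past the test, named macrophage markers, and the 5 genes most correlated with CD163. Each test was tried on simulated data in which 200 of 17687 genes changed. Recovery at 1.5-fold, over 50 genes each, was 46% for DED against MA, 48% for DED against MSC and 64% for MA against MSC. At 2-fold it was 92%, 96% and 98% in that order, and 9, 11 and 4 genes without a change were called. All 3 simulations used the same gene means and spreads, so their rates differ by the random draw and do not rank the comparisons. A smaller share of genes changed in them than passed in the real data, so the rates may not carry over. The 24 alternatives were other normalization or scaling, dim genes left out, single probe sets, an intensity trend with a robust fit, array weights, only the groups compared, a replicate block, each array left out, and DED arrays 1 and 3 left out. Promoter windows were taken from RefSeq (GRCh38.p14). Figures were drawn with matplotlib 3.10.9 in Python 3.11.15.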

Additional observations from a re-analysis of the deposited data

Results flagged for a closer look

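In 3 of 30 sets of 5 arrays, 1 array stood apart from the other 4 by Dixon's ratio of gap to range (critical value 0.71), and chance gives about 1 in 20. CD163 on MSC array 3 was 6.69, above the other MSC arrays at 5.99 to 6.15 (ratio 0.7714). SCARA3 on DED array 4 was 8.19, above the other DED arrays at 7.36 to 7.57 (ratio 0.747). SCARA3 on MA array 1 was 9.66, below the other MA arrays at 10.14 to 10.32 (ratio 0.7273).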

How the results depend on the processing

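Over the 24 alternatives, 4 or 5 of the 10 genes passed in MA against MSC, and no result for the 10 genes changed sign past the test. The fifth was CD163, which passed when only the 2 groups were fitted and without DED arrays 1 and 3. The median difference of the members in DED against MA was -0.44 with dim genes left out, against 0.015, because MSR1, MRC1 and STAB1 then drop out. With array weights 7 other scavenger receptors passed in MA against MSC, against 4. No shared effect of the replicate number was seen: same-numbered correlations ran from -0.108 to 0.0867, 0 of 15 over 0.1. In 1 of 15 pairs the array correlated best with its own number. These correlations cannot show whether the arrays were paired by design, which the labels do not say. With the replicate number as a block, 4 members and 5663 of all genes passed in MA against MSC, against 4 and 5844 without it. The members and related genes with means under the negative control 95th percentile are limited by background.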
